A study of Mus musculus with 15 samples.

Results

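The dividing cells described here are small intestinal cells that the authors' cell table calls not.stem and that carried at least 1 unique molecular identifier (UMI, 1 counted transcript) of at least 5 of 10 mitotic genes: Top2a, Mki67, Nusap1, Prc1, Kif11, Cenpf, Aurkb, Ube2c, Hmmr and Cdk1. The rule took 3200 of the 18919 cells of the series, and 30.1% of the 10627 not.stem cells of the small intestine. Of them, 2056 came from the proximal and 1144 from the distal small intestine, and the remaining 7427 not.stem cells served as the comparison population. The cells were thus selected on the measured UMIs of these 10 genes, whose levels are given as a description only. The not.stem call equalled 0 UMIs of Lgr5 and 0 UMIs of eGFP in all 18919 cells, so a stem cell in which neither was sampled also falls in it.

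In the crypt, Lgr5-expressing stem cells give rise to transit-amplifying cells, which divide a few times while they move up and commit to the absorptive or the secretory lineage. Division needs duplication of the genome by the replication machinery and then separation of the chromosomes by the spindle, whose genes are transcribed mostly late in the cycle. Dietary fatty acids activate nuclear receptors of the PPAR family, which in the intestine raise genes for fatty acid uptake and for peroxisomal and mitochondrial oxidation. Region along the gut is kept by transcription factors such as Gata4 proximally and by Hox genes distally.

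The cells came from 5 mice of the Lgr5-eGFP-IRES-CreERT2 strain, 6 months old, each sampled in the proximal and the distal small intestine. The high fat diet (HFD) group had 3 mice, fed a diet with 60% of kcal from fat, and the control group had 2 mice, fed a diet with 10% of kcal from fat. All groups carried the Lgr5-eGFP-IRES-CreERT2 allele, in which green fluorescent protein marks Lgr5-expressing cells. Single cells were captured in small wells and sequenced by Seq-Well with second strand synthesis. Counts were summed over the dividing cells of each sample, which gave 1042129 to 15069196 UMIs per sum, and levels are given as CPM, counts scaled to the same total in each sum. A level in such a sum does not tell more cells with a transcript from more transcripts per cell.

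Of the 10 libraries, the distal library of HFD mouse 3 stood apart in its share of dividing cells with immune cell genes. Among its 459 dividing cells, 185 (40.3%, exact 95% binomial interval 35.8% to 45.0%, counting error only) carried UMIs of at least 3 genes of a T cell, B cell, germinal centre B cell, plasma cell or myeloid list, and 179 did so through plasma cell genes. In the other libraries this share lay between 3.604% and 18.7%. The summed level of plasma cell genes did not set it apart, at 732.8 CPM against 1137 CPM in the distal library of HFD mouse 1. Over all libraries it was 376 of 3200 cells, of which 370 also carried at least 3 of 11 epithelial genes. With each cell thinned to 3000 UMIs, at most 1.35% of the dividing cells of any library reached 3 plasma cell genes. Of all 3200 cells, 3194 carried at least 3 of the 11 epithelial genes, which cells with immune markers also did and which alone does not establish a cell's type, and no cell carried 3 genes of a stroma and endothelium list. Scrublet, a doublet caller, marked 64 dividing cells (2%), 33 of them in the distal library of HFD mouse 3, against 66 other not.stem cells (0.889%). Across the series, 16 cell barcodes occurred in more than 1 library.

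Dividing cells were deeper than the other not.stem cells in each of the 10 samples. Their median ran from 8149 to 25756 UMIs per cell, against 4397 to 20427 UMIs in other cells. Not.stem cells with none of the 10 genes numbered 1525 with a median of 8834 UMIs, while 1126 cells carried all 10, with a median of 22326 UMIs. The rule therefore moves with depth. The share of dividing cells with all 10 genes ran from 9.33% in the proximal library of HFD mouse 1 to 44.2% in the distal library of HFD mouse 3. In the proximal library of HFD mouse 1, 41.3% of the members sat at the threshold of exactly 5 genes. Cells just inside the rule (547 cells with 5 genes) had medians over samples of 196.4 CPM of Pcna, 81.0 CPM of Cdc20 and 1184 CPM of Olfm4, while cells just outside (822 cells with 4 genes) had 168.1, 66.3 and 1333 CPM.

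The genes of the rule serve chromosome structure and the spindle. Top2a, the topoisomerase that untangles replicated DNA, averaged 1180 CPM in dividing and 87.9 CPM in other not.stem cells over the 10 samples. Mki67, the coat protein of mitotic chromosomes, averaged 2100 and 310.4 CPM. Nusap1, a microtubule binding protein of the spindle, averaged 157 and 4.01 CPM, and Prc1, which bundles the microtubules of the midzone, 172 and 6.89 CPM. As log2 ratios of dividing over other cells, with 10 CPM added to both, Top2a ran from 1.90 to 4.31 over the samples, Nusap1 from 1.85 to 4.22 and Prc1 from 1.79 to 3.95. The lowest of the 10 genes was Cenpf, a kinetochore protein, at 0.93 in its lowest sample, and the other 9 exceeded a ratio of 2 in every sample.

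The promoters of Cdk1, the kinase that starts mitosis, and Top2a are shown because they hold the elements long known from genes that peak in mitosis: the cell cycle genes homology region (TTTGAA) and the CCAAT box. Each sequence is the 250 bases before the start of the gene, 5′ to 3′ on the gene's strand, from RefSeq on GRCm38.p6. Cdk1 lies at chr10:69352913-69353162 and Top2a at chr11:99024190-99024439, both on the minus strand, and capitals mark both motifs on either strand, with no overlap between them.
Cdk1: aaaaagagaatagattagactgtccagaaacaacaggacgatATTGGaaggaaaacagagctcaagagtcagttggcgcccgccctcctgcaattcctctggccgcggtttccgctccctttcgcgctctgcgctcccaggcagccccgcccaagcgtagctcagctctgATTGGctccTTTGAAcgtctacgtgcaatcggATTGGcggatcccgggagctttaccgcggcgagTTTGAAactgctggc
Top2a: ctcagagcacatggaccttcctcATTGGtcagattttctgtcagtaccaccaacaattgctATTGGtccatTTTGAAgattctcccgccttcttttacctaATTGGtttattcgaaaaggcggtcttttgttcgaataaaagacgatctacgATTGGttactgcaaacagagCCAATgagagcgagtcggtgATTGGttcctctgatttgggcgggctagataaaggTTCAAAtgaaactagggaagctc
In Cdk1, TTTGAA ends 10 bases before the start, and in Top2a its reverse complement TTCAAA ends 18 bases before it. Of the 9 rule genes with an entry, 6 held TTTGAA and 8 held CCAAT, against 18.26% and 37.49% of all 27025 genes with an entry. Among other mitosis genes 18 of 51 held TTTGAA and 35 of 51 CCAAT, and among DNA replication genes 7 of 43 and 28 of 43. These are letter matches and say nothing about binding in these cells.

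Dividing cells were set against the other not.stem cells of the same samples as a description with no test, because the rule chose them from this contrast. Of 9188 genes with at least 10 CPM in either population, 79 (0.86%) were at least 2 times higher in dividing cells in every sample, and 13 (0.141%) at least 2 times lower. Of 58 measured mitosis genes outside the rule, 36 were among those higher, and the list's median log2 ratio was 2.35, against 0.04 over all genes. Cenpe, the kinesin that aligns chromosomes, had 312.2 CPM in dividing and 28.4 CPM in other cells. Bub1, a kinase of the spindle checkpoint, had 105.9 and 8.72 CPM, and Kif4, a chromosome-bound kinesin, 168.9 and 14.9 CPM. Esco2, which acetylates cohesin, had 114.2 and 7.602 CPM, and Smc4, a condensin subunit, had 543.6 and 108.9 CPM, so genes of cohesion and of chromosome condensation were among those higher.

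DNA replication genes differed less. Of 55 such genes, 4 were at least 2 times higher in every sample, and the median was 0.84. Pcna, the sliding clamp of DNA polymerase, had 196.9 CPM in dividing and 103.6 CPM in other cells, with a log2 ratio between 0.69 and 1.28. Mcm6, a subunit of the replicative helicase, had 288.8 and 202.2 CPM, between -0.01 and 1.26. Rrm2, the ribonucleotide reductase subunit made in S phase, stood higher at 129.0 and 25.6 CPM. Cells outside the rule thus also held replication transcripts, and the 2 populations lay closer for these genes than for mitosis genes.

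Among 26 cell cycle regulators, 3 were at least 2 times higher in every sample and the median was 0.39. Foxm1, the transcription factor of mitotic genes, had 76.7 CPM in dividing and 7.57 CPM in other cells, and the repressors E2f8 and E2f7 had 144.8 and 29.7 CPM, and 45.5 and 7.84 CPM. The cyclins of the growth phase did not follow: Ccnd1 had 281.7 and 241.0 CPM, Ccnd2 730.3 and 696.0 CPM. Myc had 41.7 CPM in dividing and 49.0 CPM in other cells. Cdkn1a, the inhibitor p21, was lower in dividing cells in all 10 samples, at 81.1 and 138.7 CPM. Ribosome biogenesis genes (28 genes, median 0.32) and genes of serine, one-carbon and nucleotide synthesis (21 genes, median 0.40) lay slightly above the median of all genes, with none at 2 times or more in every sample.

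Genes of differentiated cells were lower in dividing cells. Of 22 enterocyte genes, 1 was at least 2 times lower in every sample, with a median of -0.86: Krt20, a keratin of mature villus cells, had 97.4 CPM in dividing and 354.5 CPM in other cells. Enteroendocrine genes were lowest, with 6 of 18 at least 2 times lower in every sample and a median of -1.77. Chgb, a granin of hormone granules, had 103.7 CPM in dividing and 1022 CPM in other cells, and Cck, a gut hormone, 5.50 and 80.6 CPM. Goblet (median -0.89), Paneth (-0.97) and tuft (-1.47) lists were lower with no gene at 2 times in every sample. T cell genes had a median of -1.09, which was -0.03 once cells with immune markers were left out of both populations. The stem cell list, in contrast, had a median of 0.11, and Olfm4, a secreted crypt base protein, had 1144 CPM in dividing and 1135 CPM in other cells.

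**Figure D1:**
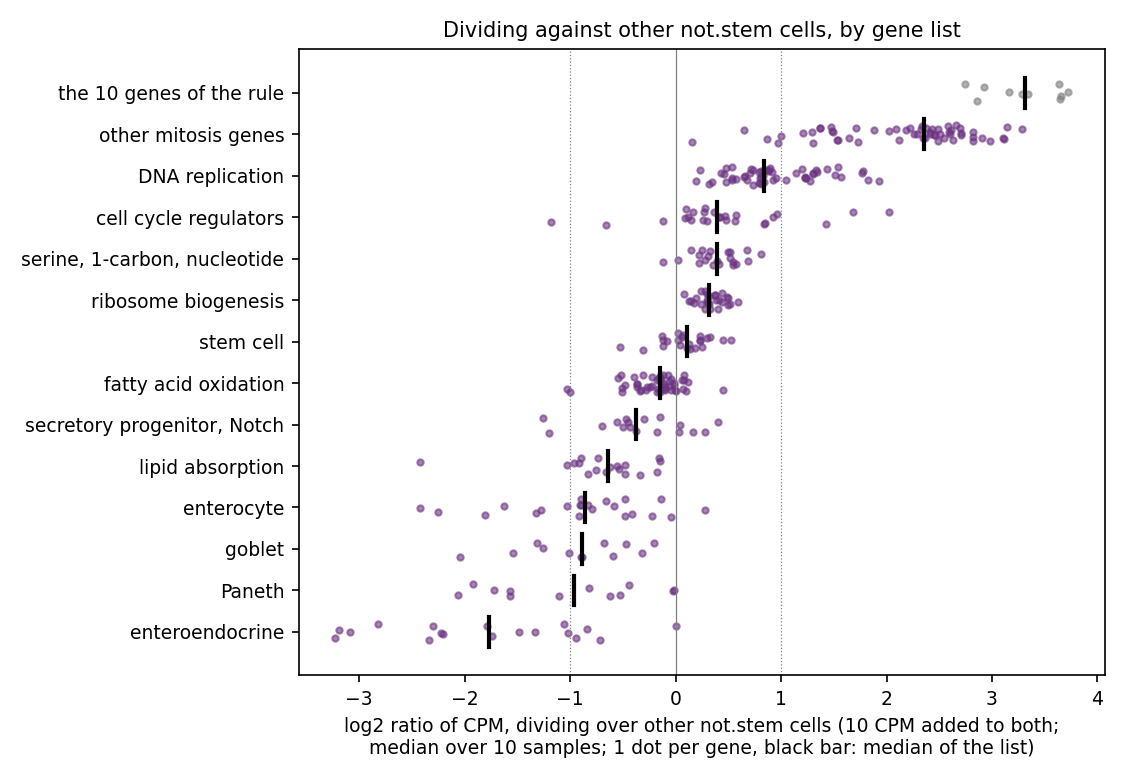
The horizontal axis gives the log2 ratio of CPM in dividing over other not.stem cells, as the median over 10 samples with 10 CPM added to both; each dot is a gene, each row a gene list and each black bar the list's median. The rows run from the rule genes and other mitosis genes (median 2.35) through DNA replication (0.84) and stem cell genes (0.11) down to enteroendocrine genes (-1.77).

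A further 1390 small intestinal cells met the same 10-gene rule but carried an Lgr5 or eGFP UMI. The not.stem dividing cells and these stem-called dividing cells differ by that call, so their contrast is again a description. Olfm4 was lower in not.stem dividing cells in all 10 samples, at 1144 CPM against 4169 CPM, and 23 of 28 stem cell genes were lower in all 10, with a median log2 ratio of -0.98. Over all 9040 genes at this level, 843 were lower and 637 higher in all 10, with a median of -0.02. Enterocyte genes had a median of 0.40, with 12 of 21 higher in all 10 samples, and goblet genes 1.07, with 5 of 12. Of 55 DNA replication genes, 10 were lower in not.stem dividing cells in all 10 samples and 0 higher (median -0.16), and of 58 mitosis genes outside the rule 5 were lower and 0 higher (median -0.10). The rule genes, which selected both populations, are not compared.

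Dividing cells made up 8.60%, 36.9% and 42.0% of the not.stem cells in the proximal small intestine of the HFD mice 1 to 3, against 25.4% and 47.1% in the control mice 1 and 2. In the distal small intestine the shares were 18.6%, 16.9% and 33.1% in HFD mice, against 13.1% and 32.8% in control mice. The groups overlapped in both organs, and the shallow libraries held the low shares. Proximally the mean was 29.2% ± 18.0 (SD, n = 3) in HFD and 36.2% ± 15.3 (SD, n = 2) in control mice, a difference of -7.03 percentage points (exact two-sided permutation test, p = 0.7, smallest possible 0.1). Distally it was 22.9% ± 8.87 in HFD and 23.0% ± 14.0 in control mice (difference -0.11 points, exact permutation p = 1, smallest possible 0.1). The share was higher proximally than distally in 4 of 5 mice, with means of 32.0% ± 15.4 and 22.9% ± 9.39 (difference 9.11 points, exact paired permutation test, p = 0.1875, smallest possible 0.0625). These 3 p-values were not adjusted, and none passed 0.05. With cells thinned to 3000 UMIs, the shares fell to 3.06%, 19.9% and 19.6% in HFD and 10.9% and 21.6% in control proximal samples, and to 8.08%, 12.2% and 17.2% in HFD and 7.69% and 15.4% in control distal samples. The organ means were then 15.02% proximally and 12.12% distally, a difference of 2.9 points, with the proximal share higher in 4 of 5 mice.

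**Figure D2:**
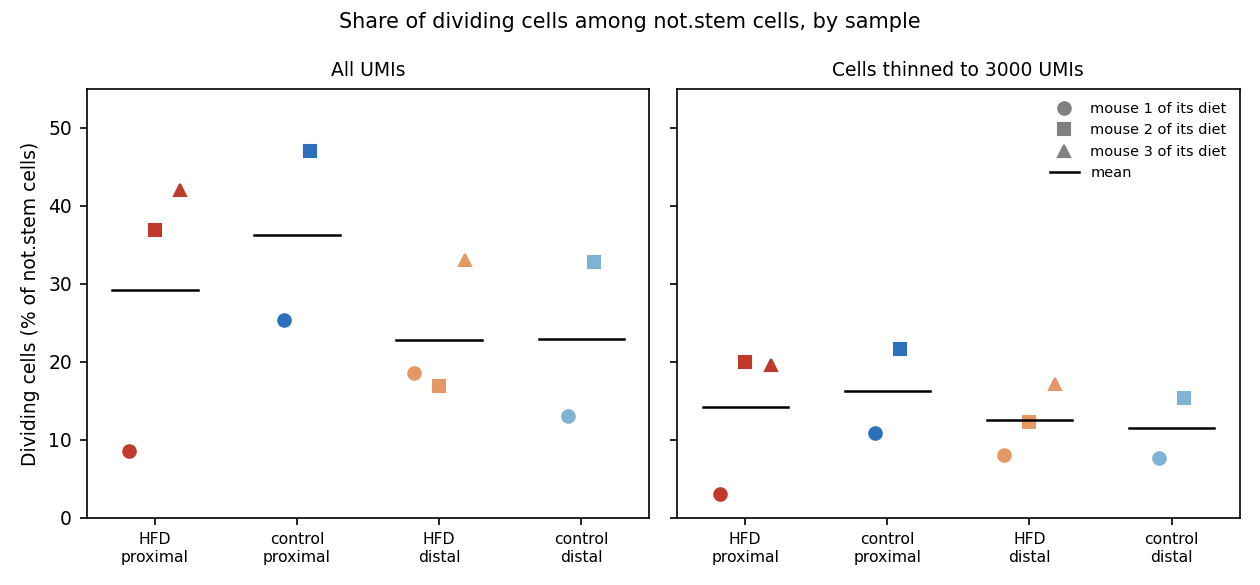
The vertical axis gives dividing cells as a percentage of not.stem cells; each symbol is a sample (shape: mouse), each bar a group mean. The left panel uses all UMIs and the right panel cells thinned to 3000 UMIs; in both, HFD and control samples overlap in the proximal and in the distal small intestine.

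In the proximal small intestine, dividing cells of HFD mice carried far more transcript of fatty acid handling and oxidation genes than those of control mice. In edgeR's quasi-likelihood test with Benjamini-Hochberg adjustment over 12129 genes, 34 genes (0.28% of those tested) were higher in HFD cells and 1 (0.00824%) lower at an adjusted p under 0.05, the threshold for all gene calls here. Of these 34 genes, 19 belong to a list of 54 PPAR target and fatty acid oxidation genes, whose median log2 fold change was 1.01 with 52 of 54 above 0, against -0.01 over all genes. Members and lists were chosen with earlier results of these data known, and a diet effect on such genes was among those results.

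Creb3l3, a transcription factor of triglyceride metabolism, had 157, 177 and 148 CPM in HFD mice, against 2.24 and 3.98 CPM in control mice (log2 fold change 5.57, SE 0.32, edgeR adjusted p = 3.23e-06). All 3 HFD samples lay far above both control samples. Acot1, which cleaves cytosolic acyl-CoA, had 158, 124 and 102 CPM in HFD and 3.13 and 3.65 CPM in control mice (5.19, SE 0.38, adjusted p = 3.57e-05). Fabp1, a cytosolic fatty acid carrier of proximal enterocytes, had 1739, 993 and 962 CPM in HFD and 25.1 and 48.0 CPM in control mice (5.06, SE 0.46, adjusted p = 0.000288). HFD mouse 1 was highest for Acot1 and Fabp1, and the groups did not overlap.

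The Fabp1 promoter is shown because it holds the kind of element that PPAR factors bind with their partner RXR, a direct repeat with 1 base between the copies, here searched on both strands as AGGNCA, any base, AGGNCA. The 250 bases before the start lie at chr6:71199629-71199878 on the plus strand (RefSeq, GRCm38.p6), and capitals mark the match, which reads on the minus strand.
Fabp1: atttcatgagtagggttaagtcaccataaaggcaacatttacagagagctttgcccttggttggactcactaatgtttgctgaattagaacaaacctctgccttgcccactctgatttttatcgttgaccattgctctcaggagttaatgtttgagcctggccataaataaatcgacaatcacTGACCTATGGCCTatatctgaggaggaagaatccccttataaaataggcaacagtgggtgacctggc
The match covers bases 67 to 55 before the start. Among the 26 of the 34 genes that had a promoter entry, Fabp1 was the 1 with this motif (3.85%), against 0.3996% of all 27025 genes with an entry. It is a letter match only, and absence in the others refers to these 250 bases.

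The genes further down the list followed the path of a fatty acid. Mgll, monoglyceride lipase, which frees the last fatty acid of a glyceride, had 37.8, 25.5 and 24.0 CPM in HFD and 1.79 and 1.19 CPM in control mice (4.33, SE 0.42, edgeR adjusted p = 0.000332). Slc25a20, the carnitine carrier of the inner mitochondrial membrane, had 93.5, 82.3 and 73.8 CPM in HFD and 14.3 and 19.97 CPM in control mice (2.25, SE 0.25, adjusted p = 0.000825). Both separated the diets with no overlap. Acadl, the long-chain acyl-CoA dehydrogenase of mitochondrial oxidation, had 212, 273 and 216 CPM in HFD and 71.1 and 75.0 CPM in control mice (1.68, SE 0.18, adjusted p = 0.000616). Cpt2, Acadvl, Eci2 and Acaa2 of the same route rose by 1.11 to 1.32 on the log2 scale, and so did the peroxisomal transporter Abcd3 (1.23). Each of these calls was lost without HFD mouse 2. The calls of Cpt2 and Acadvl were also lost without HFD mouse 3, and that of Acaa2 without HFD mouse 1. Fits without a control mouse left 1 control mouse per organ and are not counted here. With any mouse left out, log2 fold changes ran from 0.96 to 1.18 for Cpt2, 1.11 to 1.38 for Acadvl and 1.15 to 1.35 for Acaa2. Cpt1a, which admits fatty acids to the mitochondrion, had 562, 558 and 569 CPM in HFD and 311 and 193 CPM in control mice but was not called (1.18, SE 0.28, adjusted p = 0.158).

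Of 17 fatty acid synthesis and desaturation genes, 1 (Me1) rose and 1 (Scd2) fell, and the list's median was -0.19. Me1, malic enzyme, which makes NADPH, had 60.6, 80.9 and 54.3 CPM in HFD and 0.895 and 3.38 CPM in control mice (4.68, SE 0.45, edgeR adjusted p = 0.000332). Acacb, outside that list, which makes the malonyl-CoA that restrains Cpt1, had 41.4, 22.5 and 24.2 CPM in HFD and 2.24 and 1.79 CPM in control mice (3.85, SE 0.52, adjusted p = 0.00361). Scd2, a desaturase that makes monounsaturated fatty acids, was the 1 gene called lower, with 42.1, 16.7 and 25.9 CPM in HFD and 299 and 132 CPM in control mice (-3.01, SE 0.41, adjusted p = 0.00361). Its highest HFD sample lay below its lowest control sample, and the call was lost without HFD mouse 2 or without HFD mouse 3 (log2 fold change between -3.48 and -2.36 over the samples left out). Of 32 glutathione and xenobiotic genes, 5 rose, among them the carboxylesterase Ces1f (3.01), Aldh1a1 (2.17) and Gstm3 (1.87), and the list's median was 0.62. The remaining genes of the 10 largest increases were Angptl4, an inhibitor of lipoprotein lipase (3.96, adjusted p = 0.00361), the aldo-keto reductase Akr1b8 (3.42, adjusted p = 0.00156) and the secreted guidance ligand Slit2 (3.30, adjusted p = 0.00293).

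The cell cycle lists outside the rule gave no call with diet in the proximal small intestine. No mitosis gene of 59, no replication gene of 55, no cell cycle regulator of 26 and no stem cell gene of 28 passed the threshold, and their medians were -0.11, -0.03, -0.06 and -0.21. Over all 12129 genes 0.28% were called higher and 0.00824% lower, so 0 calls do not set lists of this size apart. All cells had been selected on 10 mitotic genes in both diets, so differences in the cycle as a whole are not read from them. As a description, Top2a, a gene of the rule, had 563, 1287 and 1268 CPM in HFD and 1079 and 1311 CPM in control mice, with HFD mouse 1 lowest. Myc had 28.5, 29.4 and 26.9 CPM in HFD and 85.2 and 51.7 CPM in control mice (-1.25, SE 0.27, edgeR adjusted p = 0.108), which did not pass. Olfm4 had a log2 fold change of 0.29 (SE 0.30, adjusted p = 1).

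Several proximal calls were kept throughout. Acadl, Acot1, Akr1b8, Ces1f, Creb3l3, Fabp1, Me1, Mgll and Slc25a20 were called in all 20 alternatives. The count of calls ran from 12 to 30 as each HFD mouse was left out, lowest without HFD mouse 2. Leaving out a control mouse left 1 control mouse per organ, and a larger part of the calls was then lower in HFD cells. Without the proximal library of HFD mouse 1, which held 75 members, 28 genes were called, 27 of them among the 35. Other not.stem cells carried the same transcripts: Creb3l3 had 182, 402 and 331 CPM in HFD and 12.7 and 43.9 CPM in control mice there, and 11 genes were called. The diet difference in dividing minus that in other not.stem cells gave 0 calls of 13559 genes (0%, 220 at an unadjusted p under 0.05, edgeR), and the PPAR list's median of this difference was 0.01.

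Creb3l3 and Fabp1 transcripts were also counted in cells that carried T cell genes, which held epithelial transcripts too. Cells with at least 5 of 15 T cell genes, 17 to 57 per library, had 144, 307 and 285 CPM of Creb3l3 in HFD and 18.0 and 17.2 CPM in control proximal samples. Fabp1 in them was 1316, 1023 and 1707 CPM in HFD and 35.9 and 172 CPM in control samples. The epithelial keratin Krt8 in them was 1220, 1632 and 1373 CPM in HFD and 1201 and 1662 CPM in control samples. The part of transcripts shared between cells in the diet result was not tested.

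**Figure D3:**
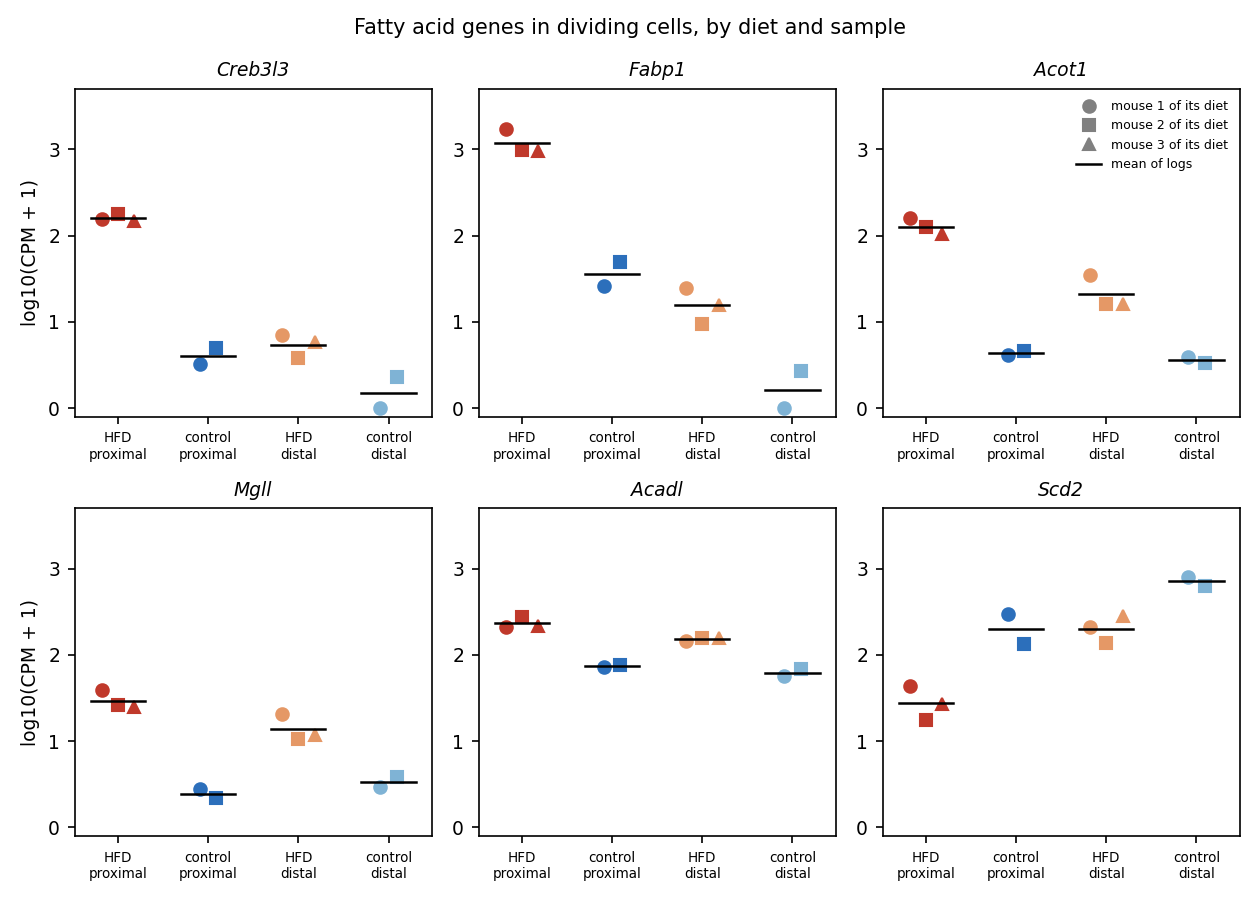
Each panel gives log10(CPM + 1) of a gene in the summed dividing cells of each sample (shape: mouse), with bars for the group mean. Creb3l3, Fabp1, Acot1, Mgll and Acadl lie higher in HFD than in control proximal samples and Scd2 lower, with no overlap.

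In the distal small intestine the same direction was seen at fewer genes: 4 of 12129 (0.033%) were called, all higher in HFD mice, with 452 at an unadjusted p under 0.05 (edgeR). Acacb had 42.8, 13.3 and 17.6 CPM in HFD and 1.92 and 0.746 CPM in control mice (4.71, SE 0.68, edgeR adjusted p = 0.047). Acot1 had 33.6, 15.3 and 15.1 CPM in HFD and 2.88 and 2.35 CPM in control mice (3.07, SE 0.46, adjusted p = 0.047). For both genes HFD mouse 1 was highest and the diets did not overlap. Acadl, more even between the mice of a diet, had 145, 156 and 154 CPM in HFD and 56.6 and 66.7 CPM in control mice (1.25, SE 0.18, adjusted p = 0.047). Its call was lost with any of the 5 mice left out, while that of Acacb was kept in 2 of 5 and that of Acot1 in 1 of 5.

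Of the PPAR and oxidation list, 3 of 54 genes were called distally, and 43 of 54 lay above 0 with a median of 0.49, against 0.00 over all genes. Fabp1 had 24.0, 8.58 and 14.9 CPM in HFD mice and was listed at 0 in control mouse 1 and at 1.71 CPM in control mouse 2 (adjusted p = 0.176). Creb3l3 had 6.12, 2.86 and 4.83 CPM in HFD and 0 and 1.28 CPM in control mice (adjusted p = 0.452). Both stood at a small part of their proximal HFD levels. No gene was called lower: Mt2, a metallothionein, had 11.7, 15.3 and 6.37 CPM in HFD and 34.5 and 51.4 CPM in control mice (-2.22, SE 0.34, adjusted p = 0.0612), and Scd2 had 208, 136 and 285 CPM in HFD and 797 and 631 CPM in control mice (-1.80, SE 0.38, adjusted p = 0.322). Mitosis genes outside the rule, replication genes, cell cycle regulators and stem cell genes again gave 0 calls, where 0.033% of all genes were called. Olfm4 had 2000, 935 and 959 CPM in HFD and 526 and 353 CPM in control mice, with no overlap, but was not called (1.51, SE 0.31, adjusted p = 0.271).

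Paneth cell transcripts were counted beside the distal diet result. Their summed level was 2707, 1700 and 1223 CPM in HFD and 266.8 and 260.0 CPM in control dividing cells, with no overlap, and Lyz1, the Paneth cell lysozyme, had 962, 593 and 262 CPM in HFD and 22.1 and 44.1 CPM in control mice. None of 13 Paneth genes was called (Lyz1 4.05, SE 0.68, edgeR adjusted p = 0.103), and the list's median was 2.36. Dividing cells with at least 3 of the 13 genes made up 21.1% to 82.8% in HFD and 4.50% and 35.4% in control distal samples. After thinning to 3000 UMIs these shares were 8.04% to 15.03% in HFD and 1.90% and 2.10% in control samples. Other not.stem cells of these samples also separated the diets, at 1136, 9466 and 5987 CPM in HFD and 880.3 and 992.6 CPM in control mice. Their shares after thinning were 7.28% to 25.2% in HFD and 3.115% and 6.17% in control samples. The part of Paneth cell transcripts in the other distal diet results was not tested.

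The difference of the diet effects, proximal minus distal, gave 0 calls of 12129 genes (0%) in the fit by groups, with 218 at an unadjusted p under 0.05 (edgeR), 3 calls by DESeq2 and 0 by limma voom. Both organs came from the same mice, and with the mouse as a block the count was 35, of which 12 were higher and 23 lower. In that fit the diet effect was larger proximally for Creb3l3 (difference 3.25 on the log2 scale, adjusted p = 0.0206), Me1 (3.09, adjusted p = 0.00805), Acot1 (2.09, adjusted p = 0.0336) and Ces1f (2.61, adjusted p = 0.000313). It was lower proximally for 5 of 13 Paneth genes, among them Lyz1 (-4.36, adjusted p = 6.79e-05), and for 4 of 7 MHC class II genes. In the distal small intestine, the diet difference in dividing minus other not.stem cells gave 0 calls of 13559 (0%, 423 at an unadjusted p under 0.05, edgeR).

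**Figure D4:**
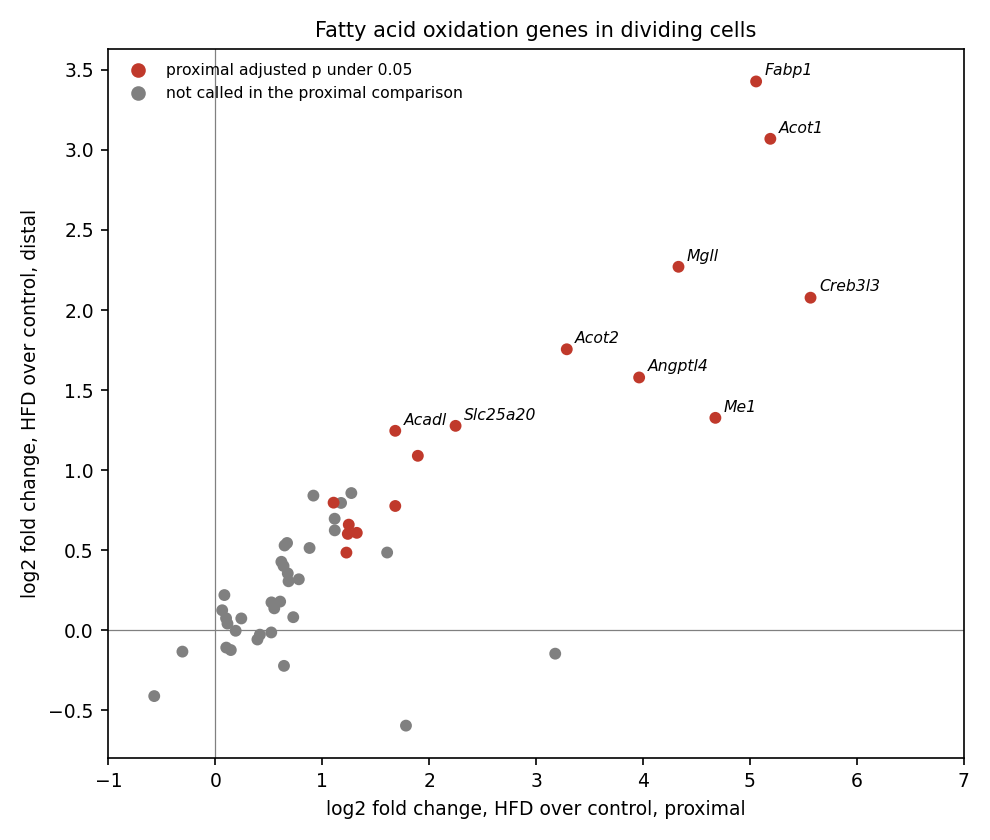
Each point is 1 of 50 PPAR target and fatty acid oxidation genes, with the log2 fold change (HFD over control) in proximal dividing cells on the horizontal axis and in distal dividing cells on the vertical axis; red points were called proximally. Pdk4 and Cyp4a10, listed at 0 in all samples of a group, are left out, and Creb3l3 lies at 5.57 proximally and 2.08 distally.

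Between the organs, dividing cells kept a strong regional pattern. In the proximal minus distal comparison over all 5 mice, 306 genes were higher proximally (2.52% of 12129) and 481 lower (3.97%), with edgeR and 1898 at an unadjusted p under 0.05. With the mouse as a block, which the shared animals call for, the counts were 822 higher and 936 lower.

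Regional transcription factors led. Onecut2 had 156, 232 and 226 CPM in HFD and 184 and 270 CPM in control proximal samples, against 0, 6.67 and 3.50 CPM in HFD and 3.84 and 3.52 CPM in control distal samples (6.02, SE 0.35, edgeR adjusted p = 1.58e-06). Gata4, which maintains proximal identity, had 160, 204 and 225 CPM in HFD and 162 and 151 CPM in control proximal samples, against 32.1, 32.4 and 40.5 CPM in HFD and 22.1 and 53.5 CPM in control distal samples (2.19, SE 0.19, adjusted p = 2.05e-05). Neither gene overlapped between organs in any mouse. Pdx1, a factor of the duodenum, had 24.7 to 42.1 CPM proximally and was listed at 0 in all 5 distal samples. Hoxb9 was listed at 0 in all 5 proximal samples and had 9.69 to 42.2 CPM distally, and Hoxb6 and Hoxb7 were also called lower proximally. Of 18 proximal list genes, 14 rose, and of 19 distal list genes 16 fell, in the proximal cells.

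Absorptive genes differed in the same cells. Fabp6, the ileal bile acid carrier, had 1.19 to 1.57 CPM in proximal samples, against 15.8, 68.7 and 70.6 CPM in HFD and 122 and 194 CPM in control distal samples (-5.98, SE 0.42, edgeR adjusted p = 3.37e-06). Of 23 enterocyte genes, 13 were higher and 3 lower proximally, with a median of 1.18. The aminopeptidase Anpep (1.69) and the phosphatase Alpi (2.44) were among those higher. With the block, 17 were higher and 3 lower. Of the PPAR and oxidation list 16 of 54 were higher, and 35 of 54 with the block. Scd2 ran the other way, with 16.7 to 299 CPM proximally and 136 to 797 CPM distally (-2.38, SE 0.29, adjusted p = 0.000284), and these ranges overlapped.

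Goblet genes and some factors of the secretory lineage were lower in proximal dividing cells. Atoh1, the factor that commits cells to the secretory lineage, had 17.1, 18.4 and 11.5 CPM in HFD and 13.6 and 15.2 CPM in control proximal samples, against 40.3, 76.3 and 64.9 CPM in HFD and 49.9 and 41.4 CPM in control distal samples (-1.80, SE 0.21, edgeR adjusted p = 0.000208). Spdef, a goblet cell factor (-1.77), the membrane-bound factor Creb3l1 (-1.83) and Bcl2l15 (-3.32) fell too. The secretory progenitor and Notch list, from which these factors come, had a median of -0.265, against 0.00 over all genes. Of 13 goblet genes, 9 were called lower and the median was -2.02, and with the block 12 of 13. Agr2, the disulfide isomerase of mucin folding, had 168 to 712 CPM proximally and 914 to 2103 CPM distally (-2.02, SE 0.35, adjusted p = 0.00282). All distal samples lay above all proximal samples for Atoh1 and Agr2. Hes1, the Notch target that opposes Atoh1, had a log2 fold change of 0.10 (SE 0.25, adjusted p = 0.951).

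Outside the rule, none of 59 mitosis genes or 55 replication genes was called between organs, with medians of -0.18 and 0.07, in cells selected on mitotic genes in both organs. Over all genes 2.52% were called higher and 3.97% lower proximally. With the block, 6 mitosis genes were lower and 1 replication gene, Dtl, was higher proximally, against 936 lower and 822 higher of all 12129 genes. Ccnd1, the D-type cyclin that couples growth signals to the cycle, fell by 0.79 on the log2 scale (SE 0.22, edgeR adjusted p = 0.0488), with 138 to 257 CPM proximally and 234 to 509 CPM distally. These ranges overlapped slightly, and the call was kept in 1 of 5 fits that left out a mouse. Of 28 stem cell genes, 5 rose (Gkn3, Soat1, Aqp4, Smoc2 and Olfm4) and 1 fell (Tnfrsf19). Olfm4 had 1140 to 1548 CPM proximally and 353 to 2000 CPM distally (0.78, SE 0.21, adjusted p = 0.0431), ranges that overlapped, and its call too was kept in 1 of 5 fits that left out a mouse. Of 17 dissociation stress genes 0 were called in the fit by groups, and 11 were higher and 1 lower with the block, with a median of 0.59 in the fit by groups, and their part in the organ result was not tested.

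**Figure D5:**
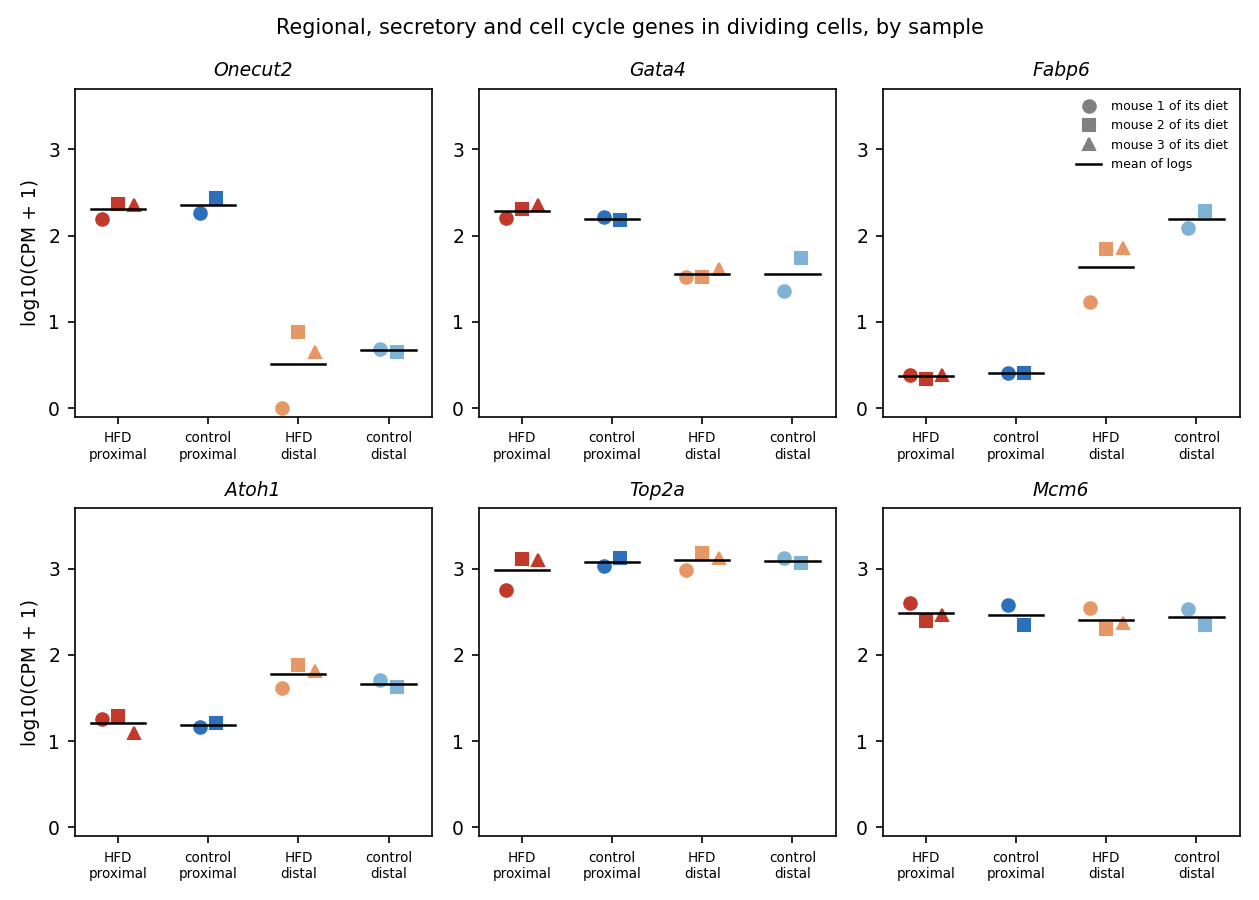
Each panel gives log10(CPM + 1) of a gene in the summed dividing cells of each sample (shape: mouse), with bars for the group mean. Onecut2 and Gata4 lie higher in proximal samples and Fabp6 and Atoh1 in distal samples of both diets, while Top2a, a gene of the rule, and Mcm6 overlap between all 4 groups.

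The organ difference in dividing cells was then compared with that in the other not.stem cells, a contrast the rule did not use. It differed for 7 of 13559 genes (0.0516%, 966 at an unadjusted p under 0.05, edgeR), while 999 genes were called between organs in other not.stem cells alone. Fabp6 had 124, 317 and 460 CPM in HFD and 683 and 1313 CPM in control distal other cells, above the dividing cells of the same sample in all 5 mice, so its proximal-to-distal gap was smaller in dividing cells (difference 3.65, SE 0.32, adjusted p = 0.000989). Reg1, a secreted lectin of proximal crypts and villi, had 44.2, 59.5 and 57.8 CPM in HFD and 27.3 and 26.0 CPM in control proximal dividing cells, against 94.1, 223 and 313 CPM in HFD and 127 and 166 CPM in control proximal other cells (-2.59, SE 0.34, adjusted p = 0.0181). Sulf2, an extracellular sulfatase, had 0.713 to 5.11 CPM in dividing and 10.3 to 19.0 CPM in other proximal cells, but 16.2 to 30.1 CPM in dividing and 17.4 to 28.2 CPM in other distal cells (-1.81, SE 0.23, adjusted p = 0.0173). The other not.stem cells are a mixture of types whose shares differ between samples, and the part of that in these differences was not tested.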

How the data were processed

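The authors deposited a table of raw UMI counts per gene and cell for 18919 cells and 17185 genes, with a cell table of diet, organ, mouse and stem call; all values were whole, and each cell's sum matched its total in the cell table. The genome build was mm10 per the submitters' processing notes, and the aligner and counting tool are not given in the sources used here. Cells held at least 538 UMIs, their mitochondrial share reached 35%, and no further filter on cells was used. Summed over the 15 libraries, 47183 gene entries were seen in 0 cells of a library, but 94 in 1 cell and 5035 in 5 cells. Rarely seen genes thus seem to have been removed per library, and a 0 gives no limit. The cell table names control mouse 3 where the labels name control mouse 2, and they were taken as the same by elimination.

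Counts were summed per sample over dividing and over other not.stem cells (at least 20 cells per sum) and tested in edgeR 4.0.16 (quasi-likelihood F test, TMM, filterByExpr, R 4.3.3) with 1 term per diet and organ, adjusted over all genes tested by Benjamini-Hochberg. The test that sets dividing against other cells had a term per sample. Shares were compared by exact permutation tests. The fit by groups took its spread from all 10 sums within the 4 groups and counted the 2 organs of a mouse as separate. The test of dividing against other cells used 2 sums per sample and had no term for the mouse. Each diet comparison rests on 3 HFD and 2 control mice. On simulated counts over 11927 genes, the proximal diet test recovered 36.1% of 2-fold and 86.9% of 4-fold changes. The distal diet test (11879 genes) recovered fewer, 22.45% and 78.8%. For the difference of the diet effects between organs (11893 genes) these were 6.06% and 64.6%. For dividing minus other cells they were 6.06% and 59% proximally (12054 genes) and 6.12% and 53% distally (12045 genes). There the other cells were simulated with the means, depths and spread of the dividing cells. No simulation held an effect shared by the sums of a sample or mouse, so recovery in the real sums can differ. Deviations from group means correlated between the organs of a mouse over 7082 genes, with r from 0.347 to 0.472 in HFD mice and 0.708 in control mice. The deviations of 2 control mice mirror each other, so the control value is a single one. Different mice of the same label number reached r = 0.393. Both organs came from the same mice, so results with the mouse as a block are given beside the organ comparisons.

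Named genes are the 10 called genes of largest change in each direction with at least 10 CPM (the 5 of smallest p where none is called), a panel of 24 genes, and up to 4 genes of each list. Genes named outside it were chosen after their values were seen, and some genes it takes in are not reported here. Members and lists were chosen with earlier results of these data known. Alternatives were RLE size factors, no count filter, a rule of 4 or 6 genes, members chosen at 3000 UMIs, no doublets, no cells with immune markers, a depth term, DESeq2 1.42.0 and limma 3.58.1 (voom), the replicate block, and each mouse left out. After seeing the data, fits without the proximal library of HFD mouse 1 or the distal library of HFD mouse 3 were added.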

Additional observations from a re-analysis of the deposited data

Results flagged for a closer look

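For 7 genes the difference between the organs was not the same in dividing and in other not.stem cells, by edgeR's quasi-likelihood test of that difference (proximal minus distal in dividing cells, minus the same in other cells, log2 scale). The difference was positive for Fabp6 (3.65, adjusted p = 0.000989), Ppp1r15a (0.756, adjusted p = 0.0173), Ly6e (0.547, adjusted p = 0.0218) and Pdx1 (7.21, adjusted p = 0.0316). It was negative for Reg1 (-2.59, adjusted p = 0.0181), Gsta4 (-1.89, adjusted p = 0.0218) and Sulf2 (-1.81, adjusted p = 0.0173). The fitted value of Pdx1 is no size, since all 5 sums of distal dividing cells are listed at 0, against 1.44 to 4.51 CPM in distal other cells. Ppp1r15a, a phosphatase subunit of the stress response, had 15.5 to 39.2 CPM in dividing and 30.6 to 73.2 CPM in other distal cells, but 23.0 to 72.5 CPM in dividing and 30.04 to 84.8 CPM in other proximal cells. Fabp6 was called in 4 of 5 fits that left out a mouse, and each of the other 6 genes in 1 of 5. Without cells that carried immune markers, Ly6e (0.354) and Ppp1r15a (0.569) were smaller and no longer called, nor was Pdx1, and the part of those cells was not tested.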

How the results depend on the processing

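The proximal diet comparison called 35 genes, and 90 with no count filter, 74 with DESeq2, 58 with limma voom, 54 with a depth term and 12 to 71 with a mouse or library left out; all 35 were among the calls of the first 4 settings. The distal count of 4 became 1 with RLE size factors, with the rule at 4 genes and with limma voom (for limma voom a different gene, called lower, so that none of the 4 was kept), 7 with members chosen at 3000 UMIs, 19 with DESeq2, 20 with no filter, and 0 to 11 with a mouse or library left out. The by-organ count of 0 became 6 with no filter and 3 with DESeq2 or with members chosen at 3000 UMIs. The organ count of 787 ran from 361 to 714 with a mouse or library left out. For dividing minus other cells, members chosen at 3000 UMIs gave 2, 2 and 40 calls in the proximal diet, distal diet and organ comparisons, and leaving out a mouse or library gave 0 to 2, 0 to 2 and 0 to 16. Leaving out both the cells with immune markers and the distal library of HFD mouse 3 gave 4 proximal diet and 4 organ calls. The organ count of 7 became 4 at a rule of 4 genes and 2 at 6 genes. Without a control mouse, which left 1 control mouse per organ, a larger part of the diet calls was lower in HFD cells in both organs. The causes were not tested.

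With the replicate block, the organ count was 1758 and the by-organ count 35; there the block was the mouse itself, 1 term for each of 5 mice. For diet the block was the label number, which by itself pairs no HFD with a control mouse (r from 0.182 to 0.393, 2 pairs per organ), and the block gave 121 proximal and 24 distal calls. All 35 proximal and all 4 distal diet calls were among them.

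The distal diet difference in the share of dividing cells turned to 0.648 points at a rule of 4 genes, 0.972 after thinning and 0.505 among all cells. With a mouse left out it ran from -9.99 to 9.78, and the proximal one from -17.9 to 3.80. Of the named genes, Dll1 turned to 0.273 in the distal dividing-minus-other comparison with members chosen at 3000 UMIs. Over mice left out, the difference of the diet effects, proximal minus distal, ran from -0.264 to 0.962 for Gata4. The distal diet effect on Gata4 ran from -0.593 to 0.588, and the organ difference of Me1 from -0.0102 to 1.37. The organ difference of Gata4 stayed between 2.01 and 2.62. For genes not called in either fit, a change of sign counted only where it lay beyond the 95% interval. The number of members per library (75 to 613) and the depth of the cells limit the shares and the calls.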

Other observations

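Reg3b and Reg3g, antibacterial lectins of the small intestine, separated 1 library in the dividing cells. In the distal small intestine Reg3g had 311, 480 and 3598 CPM in HFD mice 1 to 3, against 356 and 235 CPM in control mice, and Reg3b had 394, 386 and 3568 CPM in HFD and 711 and 222 CPM in control mice. The distal library of HFD mouse 3, in which 179 of 459 dividing cells carried plasma cell genes, was far above the other 4 for both. Other not.stem cells of that library had 5000 CPM of Reg3g, against 326 to 848 CPM in the other 4 distal samples.

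MHC class II genes gave no call with diet in either organ. All 7 measured genes lay below 0 in proximal HFD dividing cells (median -0.92) and above 0 in distal ones (median 0.59). Cd74, the invariant chain, had 132, 142 and 72.6 CPM in HFD and 190 and 281 CPM in control proximal samples, with no overlap (-1.03, SE 0.34, edgeR adjusted p = 0.5155). Distally it had 352, 157 and 182 CPM in HFD and 145 and 200 CPM in control samples, which overlapped. Cholesterol synthesis (22 genes, medians 0.08 proximally and 0.14 distally) and p53 target genes (17 genes, medians -0.18 and -0.24) had no call with diet.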
